A study of Homo sapiens with 4 samples.

Results

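The regions described here are RepID-overlapped replication origins that were still touched by replication initiation in RepID-deficient cells, but not at their centre. Of the 78859 initiation regions listed for wild-type cells (WT origins), 76059 lay on chromosomes 1 to 22 and were under 20000 bp wide, and 12103 of these overlapped a RepID-bound region by at least 1 bp. A region from RepID-deficient cells (KO region) overlapped 6580 of the 12103 (54.4%), and these are called kept origins. In 3158 of them no KO region covered the base at the midpoint of the origin, and these are called displaced origins. The other 3422 kept origins, with a KO region at the midpoint, are called central, and the 5523 without any KO region absent. Among the 63956 origins under the same limits that no RepID region overlapped, a KO region overlapped 39897 (62.4%). The displaced origins were thus selected on the measured positions of all 3 lists. Everything that follows from that selection is given as a description. The word displaced stands for the position of the KO regions, since no movement of an initiation site was measured.

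Initiation was measured in HCT116 cells, a human colorectal carcinoma line. The WT library came from cells with unaltered RepID and the KO library from cells in which the RepID gene had been disrupted by CRISPR-Cas9 editing, both grown without synchronization. Short nascent strands were isolated by size and by digestion with lambda exonuclease, which spares strands that begin with an RNA primer, and were sequenced (NS-Seq). RepID binding was measured by ChIP-Seq with an antibody against FLAG in U2OS cells, a human osteosarcoma line that expressed FLAG-tagged RepID, so the binding is that of a tagged, introduced protein in another cell line than the one used for initiation. There was 1 library per condition. No spread between replicates can be given, no test between conditions was possible, and the intervals below are exact binomial 95% confidence intervals that cover counting error only. The lists hold no read counts, and sequencing depth is unknown. The KO list as deposited is longer than the WT list, with 159667 against 78859 regions, and its regions are wider, with a median of 3000 against 2400 bp. For a plot of KO initiation events that colocalized with WT ones, the paper gives fewer KO than WT peaks. The share that list length has in a KO region falling on a given base was examined only through the shortened KO list in the closing section.

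In human cells replication begins at many sites on each chromosome. Proteins that include the origin recognition complex license these sites before S phase, and only some of them fire in a given cell. Most initiation sites have no strict consensus sequence, and many lie near gene promoters and in GC-rich DNA. RepID, also known as PHIP and DCAF14, carries WD40 repeats and bromodomains and belongs to a family of proteins that link substrates to the CUL4-DDB1 ubiquitin ligase. It was identified as a protein that binds a replicator of the human beta-globin locus. Whether initiation at the sites it binds depends on it is the question the WT and KO lists address.

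The origin at the CTCF gene, shown in the study's genome views, was among the displaced ones. The paper cites that view as an example of RepID-bound origins, a group for which it reports very little initiation in KO cells. CTCF encodes the zinc-finger protein that organizes chromatin loops. As the promoter sequence of the gene that names this locus, the 250 bases before the annotated start of CTCF (chr16:67562276-67562525, plus strand) are given from RefSeq on GRCh38.p14, with runs of at least 3 G or at least 3 C, which are GGG on one strand or the other, in capitals. These coordinates are of another build than the lists, which are on hg19, and whether the sequence lies within the origin was not computed.
CTCF: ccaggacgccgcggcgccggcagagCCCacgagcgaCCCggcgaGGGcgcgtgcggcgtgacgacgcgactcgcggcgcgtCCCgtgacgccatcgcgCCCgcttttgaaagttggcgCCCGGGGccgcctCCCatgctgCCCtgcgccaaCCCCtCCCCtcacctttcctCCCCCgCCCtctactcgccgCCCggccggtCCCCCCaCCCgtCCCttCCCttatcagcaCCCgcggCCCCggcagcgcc
The CTCF sequence held 20 such runs, a number reached by 10.6% of the 35116 promoters in the table, and had a GC content of 76.8%. The median over all promoters was 11 runs and 58% GC. A run of these letters is a description of the sequence and marks no binding site.

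At the CTCF locus the displaced origin was chr16:67594201-67599000, with a WT score of 557. The score of a nascent-strand region is the whole number deposited with it, and since its meaning is not stated, scores were compared only within a list. KO regions overlapped both ends of it, from 67594001 to 67596200 (score 102) and from 67597601 to 67599800 (score 97), and left 1400 bp free around the midpoint. Together they covered 70.8% of the origin. Of its RepID regions, the one with the higher peak-caller (MACS) score (498) ran from 67596846 to 67597598, inside the KO-free stretch, and ended 2 bp before the right-hand KO region. The one with the lower score (158), from 67595556 to 67596081, lay under the left-hand KO region. The base at the centre of the higher-scoring RepID region was thus without a KO region.

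**Figure D1:**
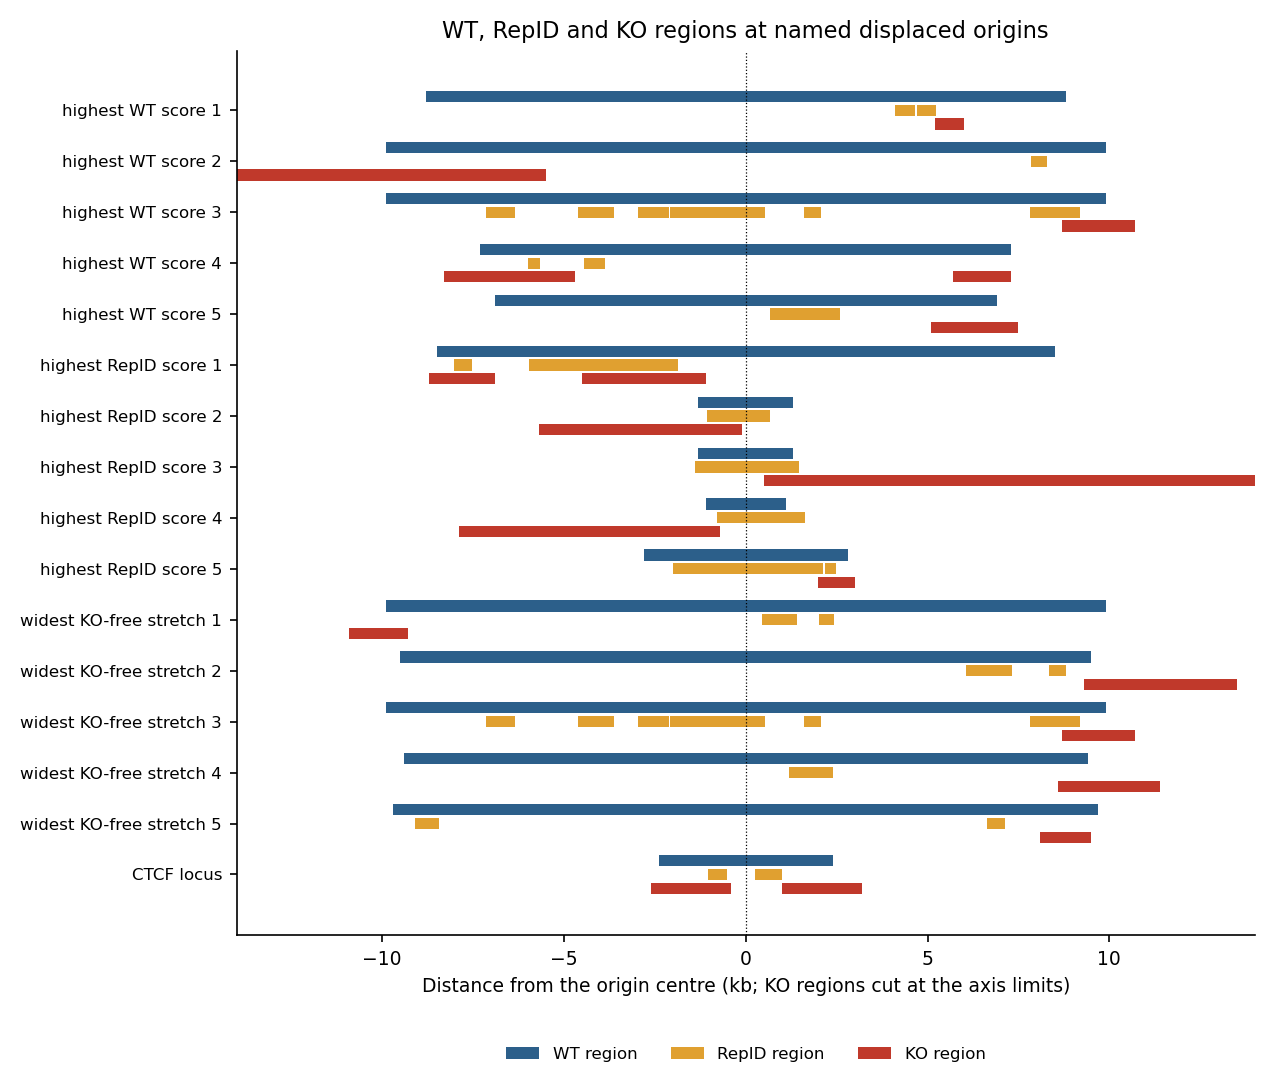
WT regions (blue), RepID regions (yellow) and KO regions (red) at 16 named entries, plotted by distance from the origin centre in kb, with 1 origin shown both for its WT score and for its KO-free stretch. Most of the KO regions cross or reach an edge of the origin, and at the CTCF locus the highest-scoring RepID region lies in the KO-free middle.

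The share of kept origins that were displaced was 48.0% among RepID-overlapped origins (3158 of 6580; 46.8 to 49.2%). The background is 24.9% over all 46477 kept origins and 21.1% over the 39897 kept origins that no RepID region overlapped (20.7 to 21.5%). The share was higher for RepID-overlapped than for RepID-free kept origins on 22 of 22 autosomes.

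The size of this difference changed with the width of the origin. Among origins under 2 kb, 32.5% of the RepID-overlapped and 9.24% of the RepID-free kept origins were displaced. From 2 to 5 kb, 51.1% of the RepID-overlapped origins were displaced, against 3863 of 17536 RepID-free ones, and from 5 to 10 kb the shares were 47.0% and 35.5%. In the widest class, from 10 to 20 kb, they were 54.9% (52.0 to 57.7%) and 51.2% (49.0 to 53.3%). These intervals overlap, which is no test of the difference. The RepID-free share rose through all 4 width classes, whereas the RepID-overlapped share did not. A wide origin has more room for a KO region away from its midpoint, and the part of this in either group was not tested.

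The displaced share also followed the scores. With kept RepID-overlapped origins ordered by the score of their highest-scoring RepID region and divided into 4 classes of 1645, the displaced share was 39.1%, 43.4%, 51.2% and 58.2% from the lowest to the highest class. Ordered by WT score, it was 36.5%, 49.6%, 52.1% and 53.8%. RepID-free origins ordered by WT score had shares of 8.24%, 15.1%, 22.6% and 38.4%, so a rise with WT score was present without RepID. The score classes differ between the groups, with the highest beginning at a score of 939 for RepID-overlapped and of 255 for RepID-free origins. With only WT regions at or above the median score of the whole list, 50.9% of RepID-overlapped and 31.3% of RepID-free kept origins were displaced. Displaced origins had a higher WT score, with a median of 466.5, than central ones (349), absent ones (208) and displaced RepID-free ones (219). The part that WT score and width have in the difference between RepID-overlapped and RepID-free origins was not tested.

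**Figure D2:**
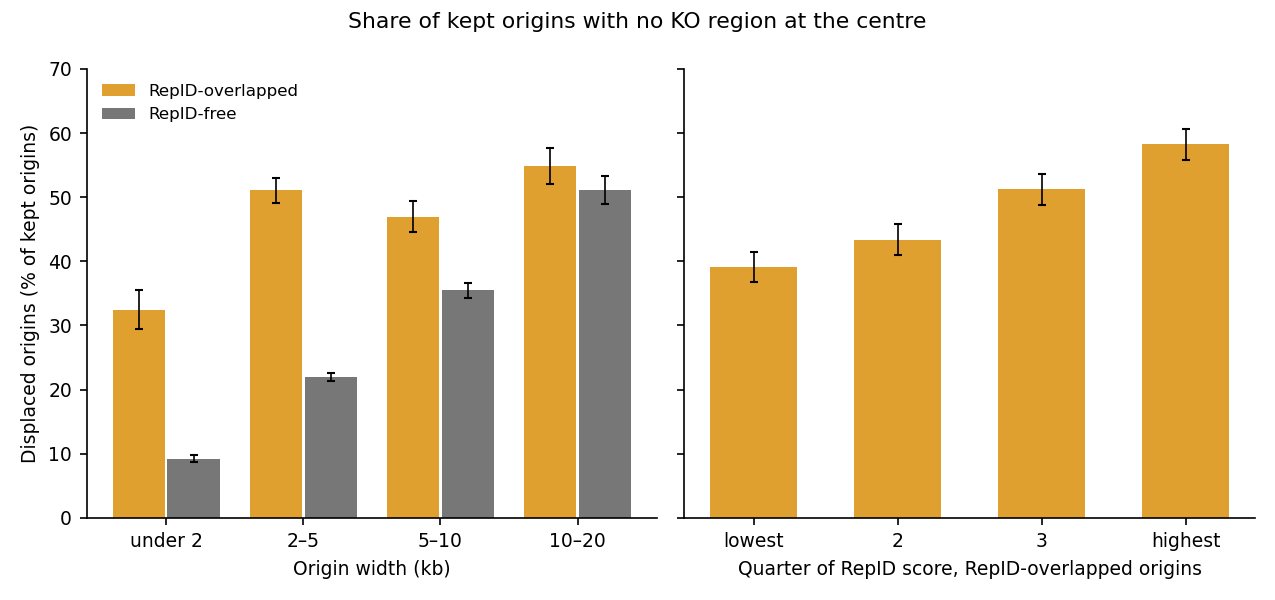
Share of kept origins with no KO region at the midpoint, in % with exact binomial 95% intervals as bars, by origin width in kb for RepID-overlapped and RepID-free origins (left) and by class of RepID score (right). The groups differ most below 5 kb and least from 10 to 20 kb, and the share rises from 39.1% to 58.2% over the RepID score classes.

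The displaced origins had a median width of 4400 bp, with quartiles at 2600 and 8600 bp, against 4000 bp for central and 2400 bp for absent RepID-overlapped origins. A KO region covered a median of 30.7% of the origin, with quartiles at 18.9 and 42.9%, against 77.8% at central origins and 33.3% at displaced RepID-free origins. The rule places a KO region at the midpoint of central origins only, so it has a part in the contrast with them. In 386 origins (12.2%) more than 50% of the width was covered although the midpoint was not. The nearest KO edge lay a median of 700 bp from the midpoint, with quartiles at 300 and 1400 bp. The stretch around the midpoint without a KO region had a median length of 2600 bp, or 65.4% of the origin.

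KO regions usually lay on 1 side of the midpoint. They lay left of it only, in the direction of lower coordinates, in 1232 origins (39.0%), right of it only in 1194 (37.8%) and on both sides in 732 (23.2%; 21.7 to 24.7%). With the KO list limited to as many of its top-scoring regions as the WT list has, there were 1742 displaced origins in place of 3158, and 14.6% of them had KO regions on both sides. A single KO region was present in 2369 origins, 2 in 690 and 3 or more in 99. Displaced RepID-free origins had a similar division, with KO regions on both sides in 21.9% (21.0 to 22.8%). Coverage on both sides was more frequent in wide origins, with 6.39% under 2 kb, 16.2% from 2 to 5 kb, 27.5% from 5 to 10 kb and 41.0% from 10 to 20 kb.

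Most of these KO regions ran across an edge of the origin rather than lying within it. At least 1 KO region reached past an edge in 2484 of the 3158 origins (78.7%; 77.2 to 80.1%), past both edges in 386 (12.2%), and all KO regions lay inside in 674 (21.3%). The share with a KO region past an edge fell with width, from 95.8% under 2 kb to 92.7%, 70.1% and 50.8% in the wider classes. In displaced RepID-free origins it was 82.7% over all widths, and 95.2%, 91.6%, 73.7% and 53.6% by class.

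The 3158 origins and their KO regions formed 4068 pairs with 4044 distinct KO regions, of which 2870 pairs crossed an edge. The crossing KO regions reached a median of 1000 bp into the origin, or 52.2% of the distance from the edge to the midpoint, and extended a median of 2000 bp beyond the edge. Only 10.8% of them entered the origin by a single 200 bp window, the step in which both nascent-strand lists are written. The midpoint of the KO region itself lay outside every WT origin in 1739 of the 2870 crossing pairs (60.6%; 58.8 to 62.4%). At displaced RepID-free origins that share was 56.6% (55.5 to 57.7%). The midpoint lay in the displaced origin in 917 crossing pairs (32.0%), against 29.6% at displaced RepID-free origins. The same KO region also overlapped another WT origin in 21.6% of crossing pairs, against 33.8% at displaced RepID-free origins. Over all 4068 pairs, the midpoint of the KO region lay in the displaced origin in 52.0%, in another WT origin in 5.26% and in no WT origin in 42.7%. Of the 1198 KO regions inside an origin, 230 (19.2%) shared an edge with it.

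The KO regions at displaced origins were of middle rank in their own list. Their scores had a median of 125, at a median percentile of 46.9 in the KO list, and their median width was 2800 bp. At central RepID-overlapped origins the KO regions had a median percentile of 70.7 and a width of 3800 bp, and at displaced RepID-free origins 50.8 and 3000 bp. Central origins are selected for a KO region over the midpoint, which a wider KO region covers more readily. The contrast with central origins thus contains what the selection sets, and the size of that part was not tested.

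RepID regions were placed relative to the midpoint of the origin. For each origin the highest-scoring RepID region was used, and its midpoint is called the RepID peak centre. It lay inside the origin in 3122 cases (98.9%), at a median of 662 bp from the midpoint of the origin, or 17.1% of the width. At central origins the median was 815 bp or 22.7% of the width, and at absent origins, which are narrower, 431 bp or 18.9%. The RepID peak centre lay within 10% of the width from the midpoint in 30.9% of displaced, 20.3% of central and 26.8% of absent origins. The RepID region itself lay over the midpoint in 33.1% of displaced, 26.1% of central and 43.1% of absent origins, so the order of displaced and absent origins depends on whether distance is scaled to width. The median RepID score was 311.8 at displaced origins, 229 at central ones and 267 at absent ones, and the median RepID width 744, 629 and 670 bp.

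A KO region covered the RepID peak centre in 363 displaced origins (11.5%; 10.4 to 12.7%). Because the rule leaves the midpoint free of KO regions, any position near it must be covered rarely. The position at the same distance from the midpoint on the opposite side, here called the mirror position, is subject to the same rule and was used for comparison. A KO region covered it in 1050 origins (33.2%; 31.6 to 34.9%). The RepID peak centre alone was covered in 272 origins, the mirror position alone in 959, both in 91 and neither in 1836. KO coverage at the RepID peak was lower than at the mirror position on 22 of 22 autosomes, with at most 16.8% at the peak and at least 28.0% at the mirror position.

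The lower coverage at the RepID peak was present in each of 6 classes of distance from the midpoint. Where the peak lay within 5% of the width from the midpoint, 1.65% of peaks and 5.77% of mirror positions were covered. At 10 to 20% of the width the shares were 9.60% and 28.8%, at 30 to 40% they were 18.9% and 60.5%, and at 40 to 50%, next to the edge, 23.1% and 51.1%. In origins with 1 RepID region the values were 12.1% and 33.2%, and in the width classes from narrow to wide 5.75, 9.69, 12.1 and 17.4% at the peak against 33.5, 31.5, 34.5 and 35.4% at the mirror position. Where the RepID region lay right of the midpoint, the shares were 10.4% at the peak and 33.9% at the mirror position, a difference of -23.5 percentage points. Where it lay left they were 12.7% and 32.5%, a difference of -19.8 points. Whether the 2 directions differ was not tested.

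The coverage at the peak was lower at higher RepID scores. From the lowest to the highest of 4 score classes of about 790 origins, 17.3%, 11.2%, 9.51% and 7.97% of RepID peak centres were under a KO region. The mirror positions of the same origins were covered in 32.9%, 35.6%, 33.8% and 30.6%, and the difference between these trends was not tested. RepID width gave a like order, with 17.0, 12.0, 8.48 and 8.48% at the peak from narrow to wide and 33.9, 35.7, 32.8 and 30.6% at the mirror position.

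**Figure D3:**
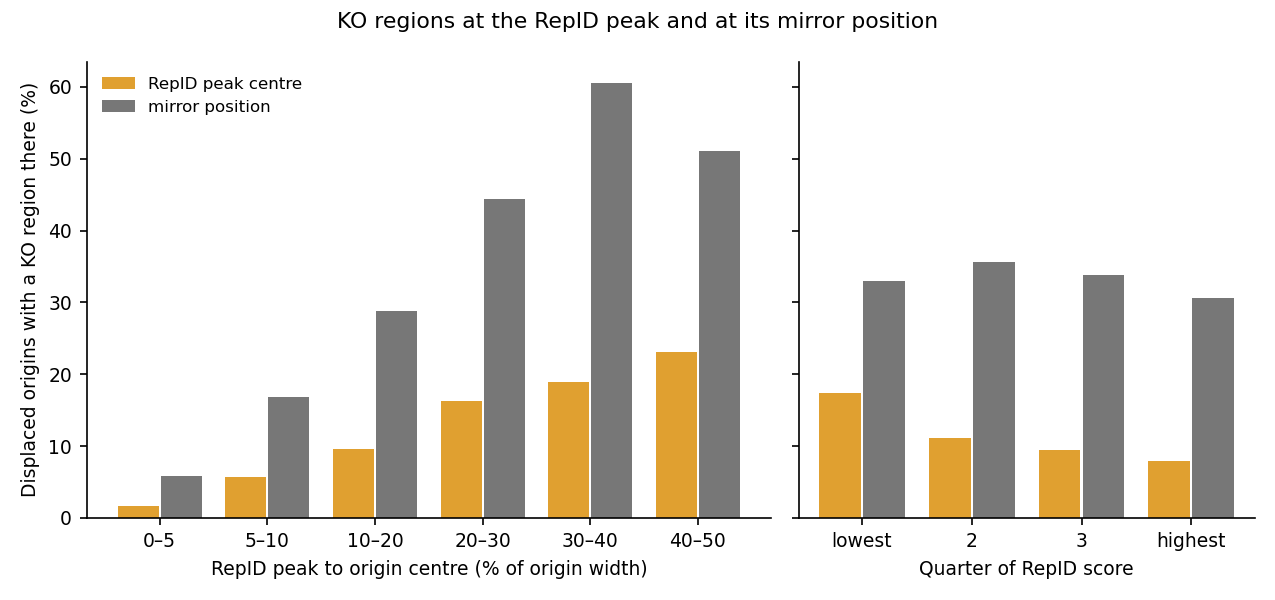
Share of displaced origins with a KO region at the RepID peak centre (yellow) and at the mirror position on the opposite side of the origin midpoint (grey), in %, by distance of the peak from the midpoint in % of the width (left) and by class of RepID score (right). The RepID peak bar is the lower in each pair, and it falls from 17.3% to 7.97% with score while the mirror bar stays between 30.6% and 35.6%.

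This asymmetry was not confined to displaced origins. In central origins a KO region covered the RepID peak centre in 62.0% (60.3 to 63.6%) and the mirror position in 82.1% (80.8 to 83.4%), a difference of -20.2 percentage points against -21.8 in displaced origins. These shares count any KO region, whether or not it is the one over the midpoint.

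Along the origin as a whole, the KO profile was lopsided in the same direction. With each origin scaled to its width and turned so that the RepID peak lay to the right, KO regions covered 37.9% of origins at 20% of the width left of the midpoint and 21.8% at 20% right of it. At 40% of the width the values were 56.1% and 40.8%, and at the edges 52.8% and 42.6%. Displaced RepID-free origins, read in the direction of the chromosome since they have no RepID side, had 34.8% and 31.1% at 20% 52.3% and 49.3% at 40%, and 53.0% and 46.5% at the edges. A KO region that ends at the midpoint leaves it uncovered whereas one that begins there covers it, and at the edges the right-hand position is the first base after the origin. The part these readings have in the left excess was not tested. One width beyond the midpoint, outside the origin, coverage was 38.0% on the side away from RepID and 34.0% on the RepID side.

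The same was seen in origins with KO regions on 1 side of the midpoint only. Where the RepID peak centre lay at least 200 bp from the midpoint, the KO regions were on the RepID side in 786 of 1981 such origins (39.7%; 37.5 to 41.9%) and on the opposite side in 1195 (60.3%). At a distance of at least 1000 bp the RepID side held them in 312 of 823 (37.9%; 34.6 to 41.3%). KO regions on the RepID side of the origin were therefore less frequent, but not rare.

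Measured in bp from the RepID peak centre, KO coverage was lowest near it and higher on either side. It was 11.5% at the peak centre, 14.2% at 500 bp toward the midpoint of the origin and 28.3% at 500 bp away from it. At 1000 bp it was 29.8% toward the midpoint and 38.7% away from it, and at 2000 bp 42.9% and 40.2%. At 10000 bp it was 28.2% and 25.9%. The rule asks for a KO region in the origin but none at its midpoint, which lay a median of 662 bp from the RepID peak centre, so both the trough and the raised values beside it contain what the selection sets, and they are given as a description. WT regions covered 98.9% of the RepID peak centres, 62.9% of positions at 1000 bp away from the midpoint and 32.9% at 2000 bp, where KO coverage was the higher of the pair. Central origins by definition have a KO region at the midpoint, and 3421 of the 3422 enter this profile. In them KO coverage fell from 80.2% at 1000 bp toward the midpoint to 61.9% at the peak and 49.1% at 1000 bp away.

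**Figure D4:**
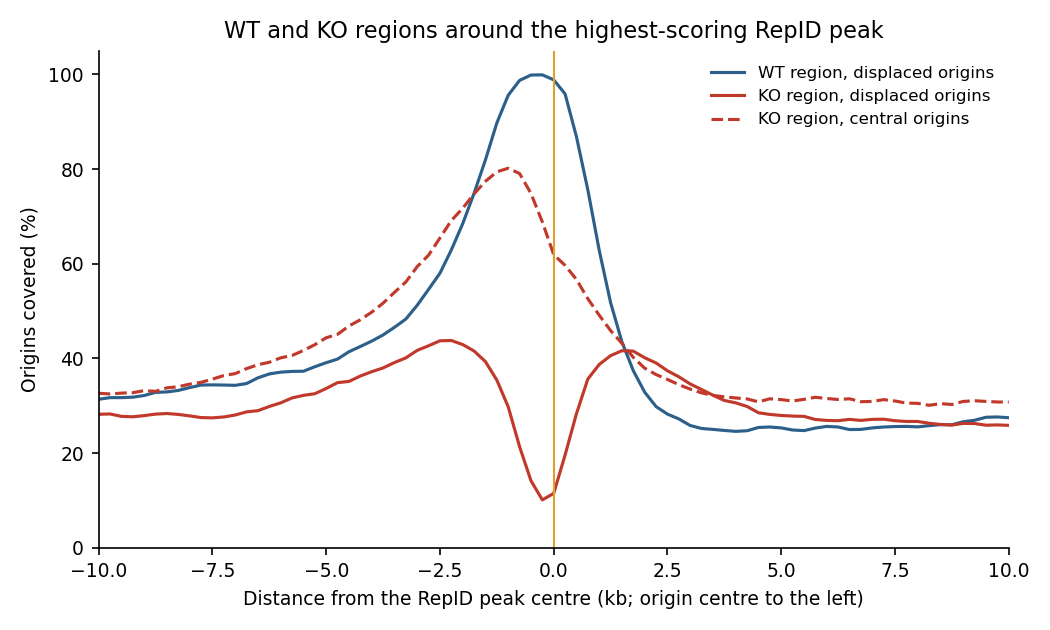
Share of origins covered by a WT region (blue) or a KO region (red) by distance in kb from the RepID peak centre, with the midpoint of the origin to the left, for displaced origins (solid) and for KO regions at central origins (dashed). KO coverage at displaced origins is 11.5% at the peak centre and 38.7% at 1 kb to the right of it.

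The whole RepID region, as opposed to its centre, was touched by a KO region in 1075 displaced origins (34.0%; 32.4 to 35.7%). It lay within 200 bp of a KO region in 1446 (45.8%) and more than 1000 bp from any in 851 (26.9%). The median distance to the nearest KO region was 287 bp over all displaced origins and 735 bp over the 2083 whose RepID region was not touched.

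Displaced origins often held more than 1 RepID region. There were 1829 with 1 (57.9%), 931 with 2 (29.5%) and 398 with 3 or more (12.6%), whereas 70.8% of central and 66.3% of absent origins had 1. The groups were not matched on width, with medians of 4400 bp for displaced, 4000 bp for central and 2400 bp for absent origins. Among the 1329 displaced origins with 2 or more, KO regions touched none of the RepID regions in 45.7%, some in 44.9% and all in 9.41%. Within these origins the peak centre of the highest-scoring RepID region was under a KO region in 10.7% (9.07 to 12.5%) and that of the lowest-scoring one in 19.6% (17.5 to 21.8%). At central origins the corresponding shares were 52.2% and 57.3%. Coverage depends on the distance from the midpoint through the rule, and these shares were not matched on that distance.

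The 5 origins with the highest WT scores were between 13800 and 19800 bp wide. The highest, chr22:46272201-46289800 with a score of 8384, held 2 RepID regions right of its midpoint and a single KO region of 800 bp (score 93), which touched the weaker RepID region and lay 532 bp from the stronger one. The second, chr17:78927601-78947400 (score 7010), had its KO region at the left end and its RepID region 8075 bp right of the midpoint. That KO region was 39200 bp wide with a score of 1885, among the highest of its list. The third, chr20:61935401-61955200 (score 6472), held 6 RepID regions, of which the strongest (469.6) lay over the midpoint, and the only KO region, of 2000 bp, crossed the right edge 8160 bp from it and touched another RepID region of nearly the same score (453.6).

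The other two by WT score had KO regions at their edges. In chr1:2515801-2530400 (score 6172) a KO region of 3600 bp crossed the left edge and another of 1600 bp ended at the right edge, and the former held the whole of the weaker RepID region (score 115) and ended 239 bp from the stronger one. In chr19:46262401-46276200 (score 6142) the RepID region had a score of 652 and the KO region crossed the right edge, 2505 bp from it. In none of the 5 was the centre of the highest-scoring RepID region under a KO region.

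The origins with the highest RepID scores differed from these. The highest deposited score among them was exactly 3100, a value shared by 4 of the 5. In chr6:41601801-41618800 the RepID region of 4108 bp lay left of the midpoint, and a KO region from 41605801 to 41609200 covered its centre. In chr11:79147401-79153000 a RepID region of 4124 bp (score 2985) spanned the midpoint, and the KO region of 1000 bp touched only its right end. The other 3, chr1:121137401-121140000, chr2:92260401-92263000 and chr2:91669001-91671200, were 2600, 2600 and 2200 bp wide with WT scores of 351, 168 and 92. At each of them the RepID region covered most of the origin and a wide KO region entered from 1 side, which at the origin on chromosome 1 covered the RepID peak centre. The RepID peak centre was thus under a KO region in 2 of these 5 origins. The KO region at chr2:92260401-92263000 was 64000 bp wide and had the highest score of the whole KO list, 85394. By their coordinates these 3 may lie near the centromeres of chromosomes 1 and 2, where repeated sequence is common. No annotation was used to place them, and the part of repeated sequence in these scores was not tested.

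The longest stretches without a KO region were found in origins close to the width limit. In chr1:3677801-3697600 the KO region covered only the first 600 bp, and 19200 bp were free, with the stronger RepID region (438.5) 930 bp from the midpoint. In chr11:119582401-119601400 a KO region entered by 200 bp at the right edge, which left 18800 bp free. The origin on chromosome 20 described above had 18600 bp free, chr11:72451801-72470600 had 18000 bp and chr3:49710001-49729400 with 17800 bp. In each of these the KO coverage was at most 7.22% of the width.

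The limits of the rule fell within a continuous range of values. A KO edge lay exactly at the midpoint in 88 displaced origins and at most 100 bp from it in 336, and in 340 central origins the KO region passed over the midpoint by at most 100 bp. The displaced origin with the largest KO share, chr10:104383801-104395400, was covered to 93.1% and became displaced only because a KO region ended at its midpoint. Likewise, chr7:100478801-100498000 and chr17:73256601-73274600 had a KO region that ended at the midpoint, and covered shares of 43.8% and 75.6%. Just outside, chr17:78075001-78087400, chr19:42650801-42662400 and chr16:1068601-1081800 had a KO region that began at the midpoint, with covered shares of 85.5%, 75.9% and 25.8%. KO coverage was 200 bp in all in 245 displaced origins, and a further 234 absent origins had a KO region that touched them or lay within 200 bp. The widest displaced origins were 19800 bp wide, of which there were 8. Another 494 origins would have been displaced but for the width limit, 10 of them at exactly 20000 bp, among them chr17:79273801-79293800, chr11:3234601-3254600 and chr11:118777001-118797000.

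Displaced origins were present on all 22 autosomes. Their share among kept RepID-overlapped origins ranged from 37.2% on chromosome 8 to 64.2% on chromosome 18, with 48.4% on chromosome 1 and 48.1% on chromosome 2. The value of chromosome 18 rests on 61 of 95 kept origins. Among kept RepID-free origins the share was also lowest on chromosome 8, at 12.6%. It was 18.9% on chromosome 18 and highest on chromosome 19, at 33.4%.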

How the data were processed

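The authors called regions enriched in nascent strands of HCT116 cells against HCT116 genomic DNA, which was not analysed here, and RepID regions of U2OS cells with MACS against genomic input. The submitters' processing notes name hg19, MACS and SICER, without versions. The programme used for the HCT116 lists is not given in the sources used here. Each deposited list, of 1 library, has a start, an end and a score per region. The meaning of the nascent-strand score is not stated. The lists give no read counts, so depth is unknown.

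Overlaps were computed in pandas 2.3.3 and numpy 2.4.6 under Python 3.11.15, with intervals counted from 0 and printed from 1. The classes were tested on simulated data, where 606 origins read base by base gave 0 mismatches. Shares have exact binomial (Clopper-Pearson) 95% intervals from SciPy 1.17.1, which treat regions as independent and are therefore too narrow where neighbouring regions depend on each other. Figures were drawn with matplotlib 3.10.9.

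The rule for members and the comparisons were chosen with earlier results of these data known. Origins were named by rule: the 5 with the highest WT score, the 5 with the highest RepID score, the 5 with the widest KO-free stretch, the 3 nearest each limit on either side, and the one at CTCF, a locus in the study's genome views. Other loci of those views are not reported here. No hg19 annotation was used, so the other origins carry no gene names.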

Additional observations from a re-analysis of the deposited data

How the results depend on the processing

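No pairing of libraries between conditions was possible because each condition had 1 library. A value counted as moved when it left the 95% counting interval, and a count when it changed by over 1.5 times; the causes were not tested except where fewer or narrower regions enter by construction. Of 112 values under alternatives, 64 stayed within these limits and 48 moved. A reversal of sign was defined only for the difference between RepID peak and mirror position, and 0 of its 13 alternatives reversed. The displaced share exceeded that of RepID-free origins in all 12 settings.

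With the KO list limited to as many top-scoring regions as the WT list, there were 1742 displaced origins, or 41.0% of kept ones, with KO regions on both sides in 14.6%, over the RepID peak centre in 13.0% and past an edge in 86.7%. With RepID regions at or above the median score, the displaced share was 52.8% and the RepID peak centre was covered in 9.29%. With WT regions at or above the median score, the displaced share was 50.9% against 31.3% for RepID-free origins, both sides were covered in 25.1% and an edge was crossed in 76.7%. With at least 400 bp of KO coverage, the displaced share was 46.0% and both sides were covered in 25.1%. With no KO region allowed within 200 bp of the midpoint the displaced share was 41.0%. With KO regions less than 1 kb apart merged, it was 46.6%, with both sides in 21.0%. With origins under 10000 bp only, it was 46.5%, with both sides in 18.5%, the RepID peak centre in 9.95% and an edge crossed in 86.0%, and with no width limit it was 49.6%, with both sides in 27.5% and an edge crossed in 73.8%. Where a KO region that ends at the midpoint counted as covering it, a reading chosen after seeing the data, the share was 46.7%. The share of pairs with the midpoint of the KO region in the displaced origin was 52.0% and moved in 7 of 11 alternatives. It ranged from 37.9% with the shortened KO list to 61.6% with no width limit.

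The difference between RepID peak and mirror position, also examined only after seeing the data, was -21.8 percentage points and ranged from -26.8 to -16.3 over 13 alternatives.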
